A study of Mus musculus with 6 samples.

Results

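The genes Tnfsf11, Tnfrsf11b, Csf1 and Il34, through which marrow stromal cells support osteoclasts, were followed in cultures of mouse bone marrow mesenchymal stem cells (BMSCs). They were chosen by name, with earlier results of these data known. All 4 were found among the 54532 annotated genes. They passed the filter on low counts that left 14624 genes for testing. The cells were wild-type primary marrow cells kept for 7 days in osteogenic medium with dexamethasone, ascorbic acid and β-glycerophosphate, which both groups received. The Ni group also received 0.1 μM nickel ions and the control group vehicle, with 3 libraries, stated to be independent biological replicates, in each group. The labels give no strain, age or sex of the donor mice, and the labels and the study's methods state different dexamethasone concentrations for the medium. The comparison asks how nickel at this dose altered gene expression during osteogenic differentiation.

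Osteoclasts arise from cells of the macrophage lineage, and stromal and osteoblastic cells direct that step with a small set of signals. RANKL, the product of Tnfsf11, binds the receptor RANK on the precursor and drives its differentiation, while osteoprotegerin (OPG), the product of Tnfrsf11b, is a secreted decoy receptor that binds RANKL and keeps it from RANK. CSF1 and IL-34, which share the receptor CSF1R, keep the precursors alive and dividing. The ratio of RANKL to OPG is widely used as a summary of how far a stromal cell favours osteoclast formation.

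In the Ni libraries Tnfsf11 was lower, at 0.563 times the control level (95% interval 0.382 to 0.828), and Tnfrsf11b was higher, at 1.41 times (1.10 to 1.80). The Tnfsf11 to Tnfrsf11b ratio was 2.56-fold lower. Csf1 and Il34 were at 1.09 times (0.859 to 1.39) and 1.14 times (0.930 to 1.41) the control level. No gene of the 14624 passed an adjusted p of 0.05 in edgeR's quasi-likelihood test with all 6 libraries (0% called), so none of these differences did. In that test 1963 genes had an unadjusted p under 0.05, and DESeq2 called 264 genes (1.94%), none of the 4 among them. Control replicate 3 resembled the Ni libraries more than the other controls across genes, with a mean Pearson's r of 0.987 with the former and 0.978 with the latter on log2 CPM. Calls that change without it are given both ways for the 4 genes and the genes named beside them. Since this control was singled out for its likeness to the Ni libraries, leaving it out tends to widen group differences. That fit called 2283 genes, and leaving out any other single library called at most 13. Its calls therefore show dependence on a single library and are not separate support for a difference. Libraries held between 16101033 and 18642504 counts. The labels do not say whether these came from separate animals, so p-values measure the spread between these libraries only.

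The 4 genes lie on the minus strand of GRCm38, Tnfsf11 (ENSMUSG00000022015) on chromosome 14 from 78277445 to 78308043 and Tnfrsf11b (ENSMUSG00000063727) on chromosome 15 from 54250619 to 54278484. Csf1 (ENSMUSG00000014599) lies on chromosome 3 from 107741048 to 107760469 and Il34 (ENSMUSG00000031750) on chromosome 8 from 110741829 to 110805924. Tnfsf11, Tnfrsf11b and Csf1 shared no exon base with another gene in GENCODE M21, and no 50-base stretch of their transcripts occurred in another gene. For Il34, 97 of 1959 exon bases (4.95%) lay under the antisense genes Gm15894 and Gm15895, and 26 of its 1999 stretches of 50 bases (1.30%) occurred in another gene. Whether reads of Il34 and of these antisense genes were told apart is not known here, since the strand setting of the counts is not given. Csf1 has 7 annotated transcripts, and its gene count sums those for secreted and membrane-bound CSF1. The stretch before the transcription start is shown for Tnfsf11, the gene with the lower level in Ni libraries, and for Csf1, the most abundant of the 4. These 2 of the 4 genes had an entry in the RefSeq promoter set (GRCm38.p6). Each sequence runs 5′ to 3′ on the gene's strand over the 250 bases before the start, and capitals mark matches, on either strand, to the motifs spelled out after the sequences.
Tnfsf11, chr14:78308044-78308293, minus strand: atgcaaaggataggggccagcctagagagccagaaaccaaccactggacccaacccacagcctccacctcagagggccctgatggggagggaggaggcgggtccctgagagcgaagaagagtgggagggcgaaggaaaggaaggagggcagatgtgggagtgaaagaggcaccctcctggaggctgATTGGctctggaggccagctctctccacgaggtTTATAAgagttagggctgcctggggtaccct
Csf1, chr3:107760470-107760719, minus strand: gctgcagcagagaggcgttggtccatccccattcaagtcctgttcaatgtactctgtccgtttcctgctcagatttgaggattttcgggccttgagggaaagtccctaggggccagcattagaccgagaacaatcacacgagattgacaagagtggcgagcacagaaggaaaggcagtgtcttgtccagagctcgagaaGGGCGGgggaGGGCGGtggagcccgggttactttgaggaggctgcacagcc
The Tnfsf11 stretch held TATAA, the core of a TATA box, 30 bases before the start, with an overlapping match on the other strand, and CCAAT in reverse 64 bases before it. The Csf1 stretch held neither and had GGGCGG, the core of a GC box, at 51 and 41 bases before the start. TATAA occurred in 22.8%, CCAAT in 33.8% and GGGCGG in 32.7% of 32851 such stretches of 250 bases. The RUNX core TGTGGT and the AP-1 sequence TGANTCA, found in 14% and 6.75% of them, were in neither stretch.

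Per length the 4 transcripts kept a fixed order, with no overlap between neighbours over the 6 libraries. In FPKM, a level scaled to both transcript length and library depth, Csf1 lay between 39.7 and 61.2, Tnfrsf11b between 19.5 and 35.5, Il34 between 6.54 and 8.42, and Tnfsf11 between 1.14 and 2.71. OPG mRNA was above RANKL mRNA per length in every library. In bulk RNA, fewer cells of a type and less RNA per cell cannot be told apart.

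Tnfsf11 was counted 111, 97 and 82 times in control replicates 1 to 3 and 47, 74 and 51 times in Ni replicates 1 to 3. In CPM, counts relative to the TMM-scaled library size, these were 6.07, 6.11 and 4.92 in the controls and 2.55, 4.26 and 2.82 in the Ni libraries. All 3 Ni libraries lay below all 3 controls, with Ni replicate 2 and control replicate 3 nearest each other. The control mean was 5.70 ± 0.675 CPM (SD, n = 3) and the Ni mean 3.21 ± 0.919 CPM (SD, n = 3) (exact permutation test, two-sided, p = 0.1, the smallest that 3 against 3 can give). The log2 fold change was -0.83 (standard error 0.25, 95% interval -1.39 to -0.27), with an unadjusted p of 0.00773 and an adjusted p of 0.293 in edgeR's test. By unadjusted p it ranked 386 of the 14624 genes. All Ni libraries lay below all controls for 6.71% of all genes tested. Without control replicate 3 the log2 fold change was -0.92 (adjusted p = 0.0344), in a fit that called 15.2% of genes. On log2(FPKM + 1), which understates differences of low genes, it was -0.55.

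Tnfrsf11b was counted 1093, 880 and 1375 times in the controls and 1848, 1382 and 1775 times in the Ni libraries. These were 59.7, 55.4 and 82.5 CPM in the controls and 100.3, 79.5 and 98.1 CPM in the Ni libraries. The groups overlapped, because control replicate 3 exceeded Ni replicate 2. The control mean was 65.9 ± 14.5 CPM (SD, n = 3) and the Ni mean 92.6 ± 11.4 CPM (SD, n = 3) (exact permutation test, two-sided, p = 0.2). The log2 fold change was 0.49 (standard error 0.16, 95% interval 0.14 to 0.84), with an unadjusted p of 0.0113 and an adjusted p of 0.306 in edgeR's test. Of the 4 genes, 1 had an unadjusted p under 0.05 with a higher level and 1 with a lower level, as did 7.59% and 5.83% of all genes tested. Without control replicate 3 the log2 fold change of Tnfrsf11b was 0.69 (adjusted p = 0.0017) and the groups did not overlap, and without any filter on low counts it was 0.50 (adjusted p = 0.00134), in a fit that called 3.97% of genes. With the replicate number as a block, which called 2.15% of genes, it was 0.51 (adjusted p = 0.0454).

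**Figure D1:**
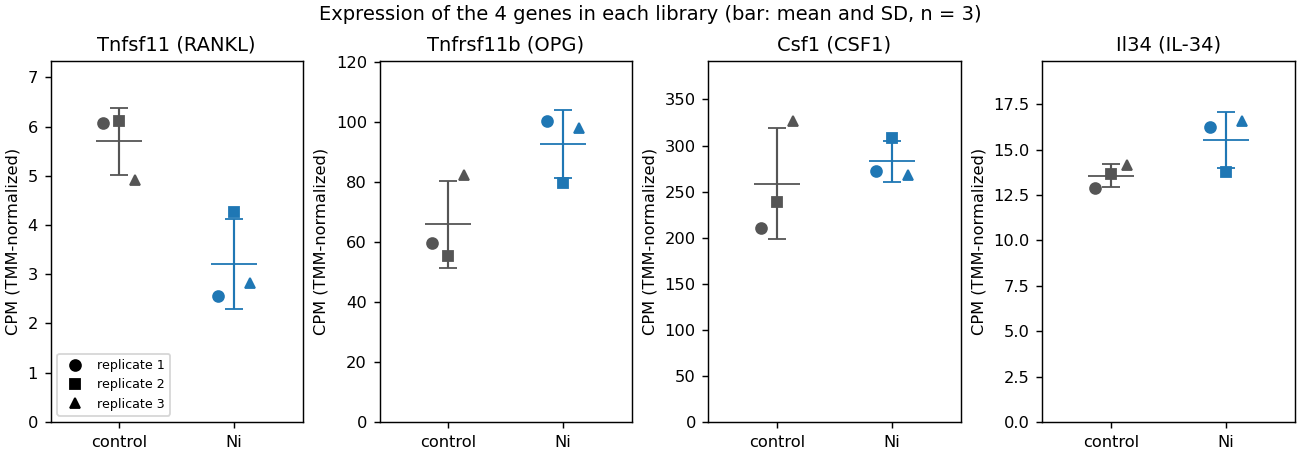
Expression of the 4 genes in TMM-normalized CPM (vertical axes, each starting at 0) in the 3 control and 3 Ni libraries, one panel per gene, with symbols for the replicate number and bars for the mean and SD. The Ni libraries lie below all controls for Tnfsf11, from 2.55 to 4.26 against 4.92 to 6.11 CPM, and the groups overlap for Tnfrsf11b, Csf1 and Il34.

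For every 100 Tnfrsf11b reads there were 10.2, 11.0 and 5.96 Tnfsf11 reads in control replicates 1 to 3. In Ni replicates 1 to 3 there were 2.54, 5.35 and 2.87. Every Ni library was below every control, but Ni replicate 2 and control replicate 3 lay close together. Their exact 95% counting intervals overlapped, at 4.18 to 6.77 and 4.71 to 7.46, so these 2 libraries were not distinguishable at this depth. The intervals cover counting error only. Those of Ni replicates 1 and 3, 1.86 to 3.40 and 2.13 to 3.79, lay below those of all 3 controls. The means were 9.05 ± 2.71 (SD, n = 3) in controls and 3.59 ± 1.54 (SD, n = 3) in Ni libraries. The log2 ratio was -3.51 ± 0.48 (SD, n = 3) and -4.87 ± 0.57 (SD, n = 3), a difference of -1.36 (exact permutation test, two-sided, p = 0.1). Leaving out each library in turn kept this difference between -1.69 and -1.15, and without control replicate 3 it was -1.63. Per length, OPG mRNA exceeded RANKL mRNA by a factor of 7.81, 7.20 and 13.3 in the controls and 31.2, 14.8 and 27.6 in the Ni libraries.

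**Figure D2:**
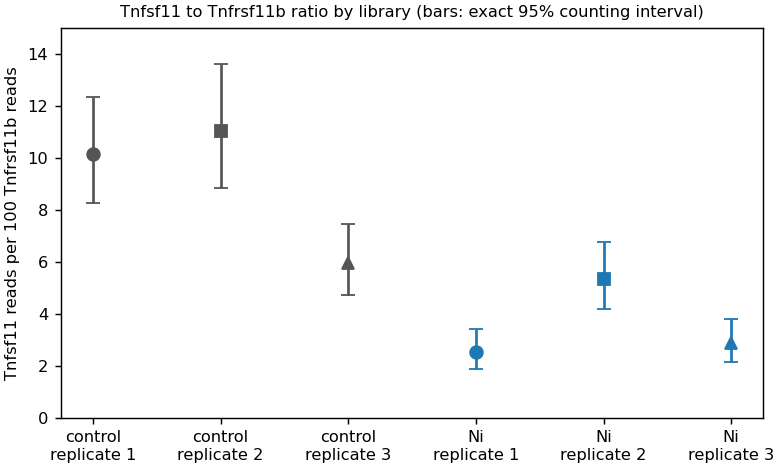
Tnfsf11 reads per 100 Tnfrsf11b reads (vertical axis, starting at 0) in each of the 6 libraries, with exact 95% counting intervals as bars. The controls lie from 5.96 to 11.0 and the Ni libraries from 2.54 to 5.35, with the intervals of control replicate 3 and Ni replicate 2 overlapping.

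Csf1, the more abundant CSF1R ligand, measured 210.9, 239 and 326 CPM in the controls and 272, 308 and 268 CPM in the Ni libraries. The groups overlapped, with control replicate 3 the highest of all libraries. On the log2 scale Ni minus control was 0.13 (standard error 0.16, 95% interval -0.22 to 0.48), with an adjusted p of 0.760 in edgeR's test. This value rested on single libraries. It was 0.0015 (adjusted p = 1.00) without control replicate 1 and 0.07 (adjusted p = 0.974) without control replicate 2. It was 0.06 (adjusted p = 0.888) without Ni replicate 2 and 0.33 (adjusted p = 0.0407) without control replicate 3, where all Ni libraries lay above both other controls.

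Il34, the second CSF1R ligand, measured 12.9, 13.7 and 14.2 CPM in the controls and 16.2, 13.8 and 16.6 CPM in the Ni libraries. Ni replicates 1 and 3 were above all controls, whereas Ni replicate 2 lay among them. On the log2 scale Ni minus control was 0.19 (standard error 0.13, 95% interval -0.10 to 0.49), with an adjusted p of 0.556 in edgeR's test, and no alternative fit called it. Without control replicate 3 it was 0.23 (adjusted p = 0.362). Csf1 reads outnumbered Il34 reads 16.4, 17.5 and 23.1 times in the controls and 16.8, 22.4 and 16.2 times in the Ni libraries. The log2 ratio differed by -0.04 between groups (exact permutation test, two-sided, p = 0.6), and its sign turned without control replicate 3, Ni replicate 1 or Ni replicate 3.

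The receptors and other binding partners of the 4 proteins were also measured. Tnfrsf11a, which encodes RANK, measured 90.2 ± 6.82 CPM (SD, n = 3) without nickel and 75.1 ± 5.02 CPM (SD, n = 3) with it. All Ni libraries were below all controls for Tnfrsf11a, as for 6.71% of all genes tested. The difference was -0.26 on the log2 scale, with a standard error of 0.10 and an adjusted p of 0.334 in edgeR's test. Csf1r was abundant and nearly equal, at 1859 ± 86.2 CPM (SD, n = 3) and 1868 ± 45.3 CPM (SD, n = 3), 0.01 apart on the log2 scale with a standard error of 0.11. Tnfsf10, which encodes TRAIL, another ligand that OPG binds, had 35 to 83 counts in controls and 24 to 38 in Ni libraries. In CPM all Ni libraries lay below all controls, as for 6.71% of all genes tested, but the margin was narrow. Ni replicate 1 was at 2.06 and control replicate 3 at 2.10 CPM. The Tnfsf10 difference was -1.05 on the log2 scale, with a standard error of 0.34 and an adjusted p of 0.306 in edgeR's test. Ptprz1, which encodes a receptor phosphatase that binds IL-34, had 24 to 29 counts in controls and 40 to 134 in Ni libraries. In CPM all Ni libraries lay above all controls, as for 7.97% of all genes tested, by 1.70 on the log2 scale with a standard error of 0.40 and an adjusted p of 0.241. Lgr4, an additional receptor for RANKL, was at -0.13 and Sdc1, a proteoglycan that binds IL-34, at 0.47, and both overlapped between groups. Sdc1 overlapped only through control replicate 3, at 144 CPM against 79.6 and 78.8 CPM in the other controls and 127 to 156 CPM in the Ni libraries. Without that library Sdc1 was at 0.82 (adjusted p = 0.000334), Tnfrsf11a at -0.32 (adjusted p = 0.0418), Tnfsf10 at -1.32 (adjusted p = 0.00944) and Ptprz1 at 1.80 (adjusted p = 0.0224) in edgeR's test, while Csf1r was at 0.04 and Lgr4 at -0.17, neither called.

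Other genes of the pathway were taken from 6 lists with 92 genes, the receptors included, of which 86 were tested. None passed an adjusted p of 0.05 in edgeR, the smallest being 0.208. An unadjusted p under 0.05 was reached by 27 (31.4%), 11 higher and 16 lower, against 13.4% of all genes tested. The lists were chosen with earlier results of these data known, so setting these shares side by side does not test the pathway. The median log2 fold change was -0.02 over these 86 genes and -0.01 over all genes tested. Both shares moved when a library was left out. The count of 27 was 12 (14% of the 86) without control replicate 1, where 6.27% of all genes tested had such a p, and 12 (14%) without control replicate 2, where 5.79% did. It was 9 (10.5%, against 6.6% of all genes) without Ni replicate 1 and 13 (15.1%, against 6.96%) without Ni replicate 3. It rose to 32 (37.2%, against 16.3%) without Ni replicate 2 and to 44 (51.2%, against 27.4%) without control replicate 3. In the last of these fits 12 of the 86 genes passed an adjusted p of 0.05 as higher and 19 as lower, where 15.2% of all genes tested were called.

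Proteases that release RANKL or CSF1 from the cell surface were expressed in all libraries, except Mmp7, at 0 counts throughout. At an unadjusted p under 0.05, Mmp14 and Adam19 were higher, with log2 fold changes of 0.43 and 0.42, and Adam17, which sheds CSF1 as well, was lower at -0.28. Adam10 was at 0.10. All Ni libraries lay above all controls for Mmp14 and Adam19, as for 7.97% of all genes tested, and below them for Adam17, as for 6.71%. The margins were narrow for Mmp14, with Ni replicate 3 at 346.2 and control replicate 3 at 346.0 CPM. For Adam19, Ni replicate 2 was at 41.7 and control replicate 3 at 41.4 CPM. With control replicate 3 left out, these were called, at 0.65 for Mmp14, 0.63 for Adam19 and -0.31 for Adam17 (adjusted p = 0.000503, 0.00188 and 0.0343 in edgeR's test), and Adam10 was not, at 0.12.

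Among 15 receptors and factors known to act upstream of Tnfsf11 in stromal cells, an unadjusted p under 0.05 was reached by 3 that were higher and 1 that was lower, and 11 did not reach it. Of all genes tested, 7.59% reached it as higher and 5.83% as lower. Pth1r, the receptor for parathyroid hormone, measured 49.9 ± 12.4 CPM (SD, n = 3) without nickel and 119 ± 27.0 CPM (SD, n = 3) with it. The difference was 1.26 on the log2 scale, with a standard error of 0.21 and an adjusted p of 0.208 in edgeR's test. Vdr, the vitamin D receptor, was at 0.44 and Lifr, a receptor chain for LIF and oncostatin M, at 0.36. Ptger4, a receptor for prostaglandin E2, was at -0.51. All Ni libraries lay above all controls for Pth1r and Vdr, as for 7.97% of all genes tested, and below them for Ptger4, as for 6.71%. Lifr overlapped between groups. Tnfrsf1a, the most abundant of the list, was at -0.01. In the fit lacking control replicate 3, Pth1r at 1.48 and Ptger4 at -0.67 passed an adjusted p of 0.05 in edgeR's test (0.000997 and 0.000848), and Vdr at 0.54 and Lifr at 0.44 did not (0.0729 and 0.0671). The stimuli these receptors answer to are known inducers of Tnfsf11.

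Of 7 genes known to act upstream of Tnfrsf11b, Ebf2 and members of the Wnt pathway, Ctnnb1, which encodes β-catenin, was higher with a log2 fold change of 0.28 and Tcf7 with one of 1.39, both at an unadjusted p under 0.05. Lef1 was lower at -2.12, also at an unadjusted p under 0.05. All Ni libraries lay below all controls for Lef1, as for 6.71% of all genes tested, and above them for Ctnnb1 and Tcf7, as for 7.97%. Lef1 had only 10 to 13 counts in controls and 2 to 4 in Ni libraries, and Tcf7 had 20 to 40 and 52 to 100. The other 4 did not reach that p, among them Lrp6, a Wnt co-receptor, at 0.04 and Ebf2 at 0.01. Of all genes tested, 13.4% reached it. With control replicate 3 left out, Ctnnb1 at 0.37 and Tcf7 at 1.71 were called in edgeR's test (adjusted p = 0.0135 and 0.00497), and Lef1 at -2.12 was not (0.0713).

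Of 22 other signals that reach osteoclast precursors, 18 were tested. At an unadjusted p under 0.05, 1 was higher and 2 lower, and 15 did not reach that level, which 13.4% of all genes tested did. Tnf, an inflammatory cytokine that promotes osteoclast formation, measured 85.9 ± 18.2 CPM (SD, n = 3) without nickel and 56.1 ± 6.71 CPM (SD, n = 3) with it. The difference was -0.62 on the log2 scale, with a standard error of 0.16 and an adjusted p of 0.262 in edgeR's test. Cxcl12, a chemokine of marrow stroma, was at -0.47. Both Tnf and Cxcl12 had all Ni libraries below all controls, as for 6.71% of all genes tested. Ptgs2, the inducible enzyme of prostaglandin synthesis, was at 0.80, and Tgfb1 was at -0.26. In the fit lacking control replicate 3, all of these were called in edgeR's test, Tnf at -0.78, Cxcl12 at -0.57, Ptgs2 at 1.30 and Tgfb1 at -0.39 (adjusted p = 0.000578, 0.00168, 0.000334 and 0.0446). Il6, Il33 and Csf2 had at most 7 counts in a library, and Ifnb1 had 0 in all.

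Inside the precursor, RANK and CSF1R act through NF-κB, MAP kinases, immunoreceptor adaptors and the transcription factors that these switch on. Of 37 genes of these steps 36 were tested, Oscar being too low, and at an unadjusted p under 0.05, 2 were higher and 9 lower. The other 25 did not reach that level, which 13.4% of all genes tested did. Relb and Nfkb2, NF-κB subunits of the alternative pathway, were at -0.39 and -0.39, and Fcer1g, an adaptor, was at -0.45. Src, a tyrosine kinase, was among the higher ones at 0.43. Spi1, a myeloid transcription factor and an abundant gene of the list, was at -0.44 (unadjusted p = 0.0541). The median log2 fold change of the list was -0.10. With control replicate 3 left out, 3 genes of the list passed an adjusted p of 0.05 as higher and 11 as lower, Relb, Nfkb2, Fcer1g, Spi1 and Src among them, and the median was -0.19. That fit called 15.2% of all genes tested.

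**Figure D3:**
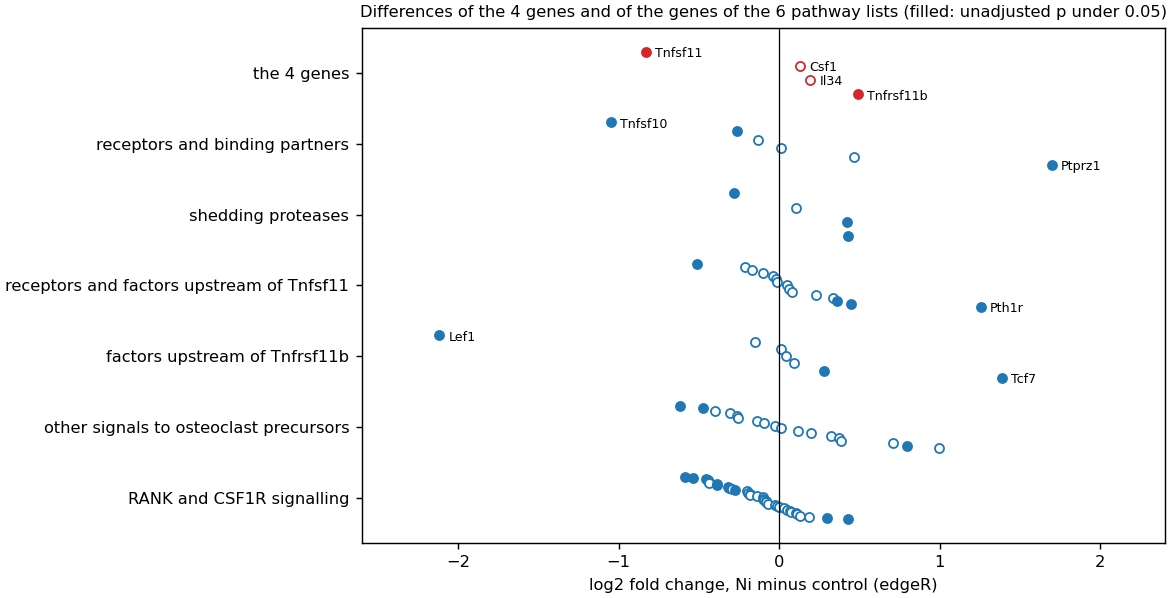
Log2 fold changes, Ni minus control, of the 4 genes (red) and of the 86 tested genes of the 6 pathway lists (blue), one row per list, filled where the unadjusted p was under 0.05 in edgeR. Tnfsf11 lies at -0.83 and Tnfrsf11b at 0.49, and the RANK and CSF1R signalling genes centre near -0.10.

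Markers of the cells that could make or receive these signals differed between the libraries too. The 9 osteoblast markers together took from 1059.7 to 2939 CPM in controls and 3243 to 6488 CPM in Ni libraries. Most of this sum was Ibsp, at 827 to 2555 CPM in controls and 2792 to 5874 CPM in Ni libraries. All 9 were higher at an unadjusted p under 0.05, among them Runx2, Sp7, Alpl, Dmp1 and Ibsp at 0.54, 0.88, 1.07, 0.98 and 1.70 on the log2 scale. Of all genes tested, 7.59% were higher at that level. The 9 stromal markers summed to 3947 to 6327 CPM in controls and 7718 to 9865 CPM in Ni libraries, mostly through Col1a2 at 0.97. Prrx1 and Ly6a, at 0.36 and 0.65, were also higher at an unadjusted p under 0.05, and the other 6 were not. Of all 9 stromal markers, 6 had a positive log2 fold change, whereas Vcam1, Lepr and Thy1 were at -0.18, -0.13 and -0.07. In the fit lacking control replicate 3, 7 of the osteoblast markers passed an adjusted p of 0.05 in edgeR's test, all higher, and 5 of the stromal markers, all higher. That fit called 15.2% of all genes tested. In both sums control replicate 3 was the highest control and Ni replicate 2 the lowest Ni library, as for the Tnfrsf11b level. The part that these markers have in the Tnfsf11 and Tnfrsf11b values was not tested.

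The 10 macrophage markers summed to 13823.5 to 14922 CPM in controls and 12622 to 13609 CPM in Ni libraries. Itgam, an integrin chain of myeloid cells, was lower at -0.40 at an unadjusted p under 0.05, and the other 9 were not. Of all genes tested, 5.83% were lower at that level. Of all 10, 7 had a negative and 3 a positive log2 fold change. Adgre1 and C1qb, the most abundant, were at -0.35 and -0.16, and Mrc1, Msr1 and Cd68 at 0.24, 0.10 and 0.05. In the fit lacking control replicate 3, Adgre1 and Itgam were called lower, at -0.51 and -0.48, and Mrc1 higher, at 0.55 (adjusted p = 0.00405, 0.00838 and 0.00162 in edgeR's test). The cultures labelled mesenchymal stem cells held macrophage transcripts in every library, and the CSF1R and RANK transcripts above are those of such mixed cultures. The 11 osteoclast markers summed to 1109 to 1903 CPM in controls and 1012 to 1172 CPM in Ni libraries. Acp5 and Mmp9, which macrophages also express, were lower at -0.90 and -0.83 at an unadjusted p under 0.05, but both overlapped between groups. Acp5 was at 1013, 1190 and 417 CPM in control replicates 1 to 3 and at 481, 506 and 415 CPM in Ni replicates 1 to 3. Calcr, Dcstamp and Ocstamp, the more restricted genes, had at most 8 counts in a library. The other 6 tested did not reach an unadjusted p under 0.05. Among them Tcirg1, a proton pump subunit, was at -0.28, Ctsk, a collagen-degrading protease, at 0.62, Atp6v0d2 at 0.24 and Itgb3 at 0.11. Of the 8 tested, 5 had a negative and 3 a positive log2 fold change. With control replicate 3 left out, Acp5 at -1.23 and Tcirg1 at -0.36 were called lower and Ctsk at 1.08 higher (adjusted p = 5.85e-05, 0.0398 and 0.000194 in edgeR's test), and Mmp9 at -0.67 was not called (0.436). Of 7 lymphocyte markers, Cd3e, Cd8a and Ms4a1 were at 0 counts in all 6 libraries, where the upper limit that a count of 0 allows, 3 counts, is 0.163 to 0.189 CPM. Cd4, which macrophages can express, was the only lymphocyte marker tested, at 30.5 ± 6.42 CPM (SD, n = 3) without nickel and 25.2 ± 3.75 CPM (SD, n = 3) with it. Its log2 fold change was -0.28 (adjusted p = 0.502 in edgeR's test), and -0.44 (0.0451) without control replicate 3. Cd3g and Cd79a had at most 5 counts in a library. Lymphocytes are another known source of RANKL.

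For each of the 4 genes, the genes most alike in profile were those with the smallest root mean square difference of centred log2 CPM over the 6 libraries. For Tnfsf11 these were Tnfrsf4, Lama1 and the processed pseudogene BC002163, at 0.0798, 0.0917 and 0.0977, against a median of 0.510 over all genes tested. Tnfrsf4 and BC002163 averaged under 1 CPM, at 0.745 and 0.658. For Tnfrsf11b they were Lox, which encodes a collagen cross-linking enzyme, Cxxc5 and Nckap1, at 0.0319, 0.0325 and 0.0361. For Csf1 they were Stard13, the processed pseudogene Gm9800 and Sec13, at 0.0339, 0.0357 and 0.0480. For Il34 they were Txndc12, Agmo and Nif3l1, at 0.0281, 0.0292 and 0.0293. Counts of the processed pseudogenes are uncertain, since such copies can share reads with their parent genes.

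**Figure D4:**
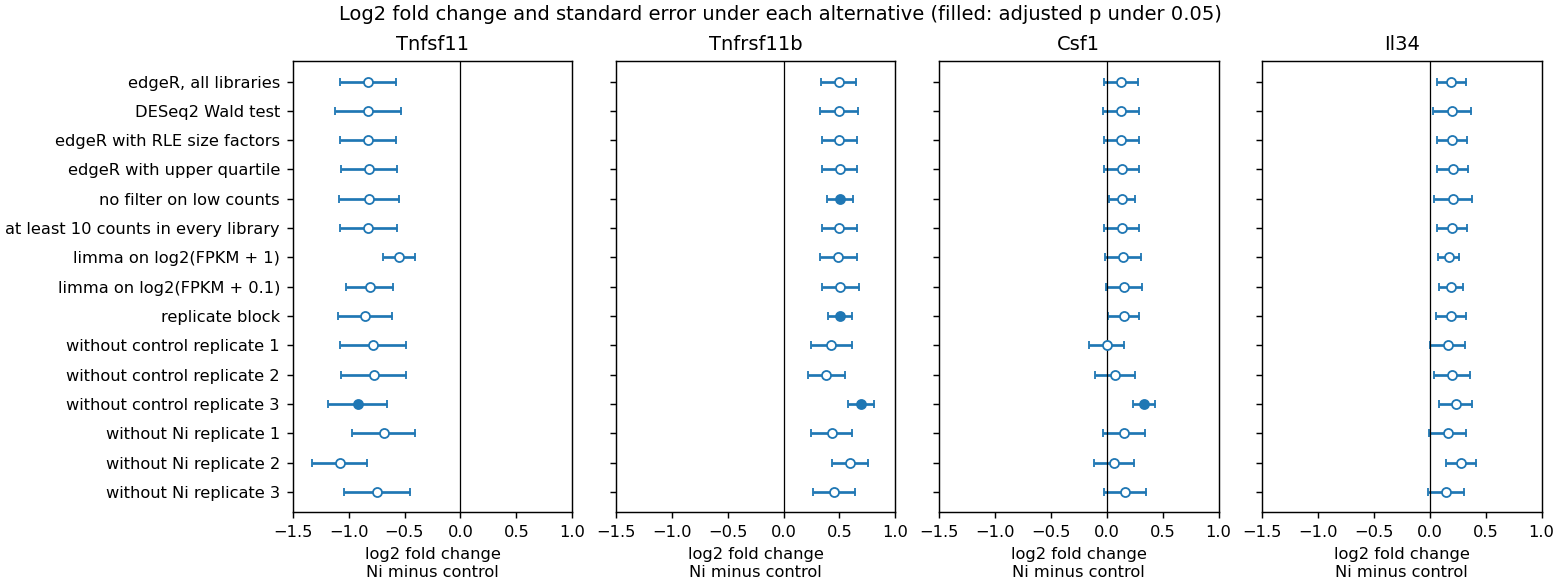
Log2 fold change, Ni minus control, with its standard error (bars) for each of the 4 genes in the edgeR fit of all libraries and in 14 alternative fits, filled where the adjusted p was under 0.05. Tnfsf11 stays between -1.08 and -0.55 and Tnfrsf11b between 0.38 and 0.69, and Csf1 ranges from 0.0015 to 0.33.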

How the data were processed

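RNA-seq libraries of BMSC cultures, 3 control and 3 Ni, were analysed from the deposited tables. The authors deposited raw read counts per gene and FPKM values, and each FPKM value was its count over the gene's length times a constant of its library (largest relative deviation 3.29e-07). The genome build was GRCm38 per the submitters' processing notes. The aligner, counting tool and strand setting are not given in the sources used here. The 4 genes were matched by symbol in the deposited annotation, and their coordinates equalled those of GENCODE M21.

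Genes were filtered by filterByExpr, scaled by TMM and compared with edgeR 4.0.16 (robust quasi-likelihood test, R 4.3.3). Adjusted p-values are Benjamini-Hochberg values over all genes tested. The 95% intervals of fold changes used the test's standard error and degrees of freedom. Alternatives used DESeq2 1.42.0, limma 3.58.1 on log2(FPKM + 1) and log2(FPKM + 0.1), other normalizations and filters, and single libraries left out. The Tnfsf11 to Tnfrsf11b and Csf1 to Il34 ratios used raw counts with 0.5 added and exact permutation tests. Libraries of a group were not duplicates (chi-square per degree of freedom 4.59 to 48.3). The edgeR test was also run on simulated counts, with no library made like control replicate 3. That run does not bear on the dependence on this library.

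The members and the 6 pathway and 8 marker lists were chosen with earlier results of these data known. Named genes are the 4 members, the receptor list and, per other list, the 2 most abundant, up to 3 with the smallest p under 0.05 and genes at 0 throughout, plus 3 of most alike profile per member. Adam10, Ctsk, Atp6v0d2, Itgb3, Mrc1, Msr1, Cd68, Tek, Kdr, Emcn, Oscar, Il6, Il33, Csf2, Calcr, Dcstamp, Ocstamp, Ebf2, Cd3g and Cd79a were named after their values were seen. So were Vcam1, Lepr, Thy1, Plin1 and Cidec. Values of listed genes without control replicate 3 were added after seeing the data. Some listed genes are not reported here.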

Additional observations from a re-analysis of the deposited data

How the results depend on the processing

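Over 14 alternative fits each, the log2 fold changes of Tnfsf11, Tnfrsf11b, Csf1 and Il34 kept their sign. Tnfrsf11b was called at 0.50 with no filter on low counts (adjusted p = 0.00134). Leaving out 1 library at a time gave log2 fold changes of -1.08 to -0.69 for Tnfsf11, 0.38 to 0.69 for Tnfrsf11b, 0.0015 to 0.33 for Csf1 and 0.15 to 0.28 for Il34. Their only calls in these fits were those of Tnfsf11, Tnfrsf11b and Csf1 without control replicate 3. The log2 ratio difference ranged from -1.69 to -1.15 for Tnfsf11 to Tnfrsf11b and from -0.19 to 0.11 for Csf1 to Il34. Over these fits, genes at an adjusted p under 0.05 numbered 0 to 2283, genes at an unadjusted p under 0.05 numbered 868 to 4125, and pathway genes at that level 9 to 44, the highest without control replicate 3. Without the filter edgeR called 1027 genes at that adjusted level in place of 0, and DESeq2 264. At an unadjusted p under 0.05 the unfiltered fit gave 3057 genes. The cause was not tested.

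Libraries 1, 2 and 3 of the groups correlated at 0.01, 0.26 and 0.14 in their deviations from the group means, which does not show that the numbers pair the samples. The fit with the replicate block called 315 genes, and Tnfrsf11b was at 0.51 (adjusted p = 0.0454). The paired difference of the Tnfsf11 to Tnfrsf11b log2 ratio was -1.36 (exact sign-flip permutation test, two-sided, p = 0.25, the smallest 3 pairs can give). Depth limited Tnfsf11 most, at 47 to 111 counts per library.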

Other observations

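The summed levels of 3 further marker lists overlapped between groups. The 5 endothelial markers summed to 43.7 to 72.2 CPM in controls and 41.1 to 46.0 CPM in Ni libraries. Pecam1 was lower at -0.65 on the log2 scale (unadjusted p = 0.0325, adjusted p = 0.347 in edgeR's test), as were 5.83% of all genes tested at an unadjusted p under 0.05. The other 4 did not reach that level. Among them Cdh5 was at -0.19, Tek at -0.66, Kdr at 0.09 and Emcn at 0.58. All Ni libraries lay above all controls for Emcn, as for 7.97% of all genes tested. With control replicate 3 left out, Pecam1 was at -0.89 (adjusted p = 0.00118) and Emcn at 0.70 (adjusted p = 0.161). The 4 adipocyte markers summed to 57.4 to 78.9 CPM in controls and 71.1 to 87.3 CPM in Ni libraries. Adipoq, an adipocyte hormone gene also known from marrow stromal cells, was at 0.16, Fabp4 at 0.43 and Plin1 at 1.52. None of them had an unadjusted p under 0.05. Plin1 had 1 to 23 counts in controls and 12 to 44 in Ni libraries. Cidec, too low to be tested with all libraries, had 1 to 3 and 8 to 13. With control replicate 3 left out, Fabp4 was at 0.74 and Plin1 at 3.66 (adjusted p = 0.00121 and 0.00791 in edgeR's test). Cidec at 2.62 (0.0599) and Adipoq at 0.20 (0.346) were not called. The 5 neutrophil markers summed to at most 1.80 CPM in a library, with S100a9 and Ngp at 0 counts in all 6 and S100a8 at 10 to 23 counts in controls and 10 to 13 in Ni libraries.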
